A study of Mus musculus with 8 samples.

Results

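The transcripts described here are the genes encoded on the mouse mitochondrial chromosome, chosen as every listed gene whose Ensembl identifier lies on that chromosome. GENCODE M21 annotates 37 such genes, and the deposited files list 13 of them among 34745 genes in all. The 13 are all of the annotated protein-coding genes. The 2 ribosomal RNA genes and the 22 transfer RNA genes were not among those listed. Each share below therefore refers to mitochondrial mRNA. The 13 mRNAs all passed the filter on low counts, which 13186 genes passed, and the smallest count of any of them in any library was 813, for mt-Nd6.

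RNA-seq was carried out on 8 tumours of the mouse melanoma line B16F10, which was kept in culture and then injected under the skin of C57BL/6J mice. In 4 samples the mice had been fed a normal diet (ND 1 to ND 4), and in 4 a high cholesterol diet (HCD 1 to HCD 4). All 8 came from the same line and mouse strain, and the labels name no genetic change and no other treatment. The labels number the samples without saying that each came from a separate mouse, so p-values measure the spread between these samples. The labels do not give the age and sex of the mice or the time on the diet. A subcutaneous tumour of 1 line in mice also holds host cells, and reads of tumour and host mitochondria were not separated.

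Mitochondria carry their own small circular chromosome in many copies per cell. A dedicated RNA polymerase copies each of its strands into long transcripts. These are cut, mostly at the transfer RNAs, into single mRNAs, ribosomal RNAs and transfer RNAs, and most of the mRNAs are then polyadenylated. The mRNAs encode core subunits of the respiratory chain: complex I takes electrons from NADH, complex III passes them to cytochrome c, complex IV delivers them to oxygen, and complex V is the ATP synthase. All other subunits of these complexes, and the proteins that copy, process and translate mitochondrial RNA, are encoded in the nucleus and imported.

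The total count per library ran from 14599222 to 17722093. The melanocyte markers Pmel, Tyr, Tyrp1, Dct and Mlana, in the labelled lineage, summed to 11451.6 to 12153.0 FPKM in ND and 10885.9 to 12432.1 FPKM in HCD, and 0 of the 5 differed at an adjusted p under 0.05 in edgeR's quasi-likelihood test. FPKM is the deposited measure of level, the count scaled to gene length and to the library's total. ND 2, ND 3 and ND 4 stood apart from the other 5 libraries in a way that crosses the diets. Of 1506 olfactory and vomeronasal receptor genes, 427, 410 and 406 had a count in them, against 8 to 13 in ND 1 and the HCD libraries. ND 1 is therefore the only normal-diet library on the same side as the HCD libraries, and values for it alone are given where they bear on a result.

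The sequences below show 3 features of these genes that bear on the counts. Coordinates are in mm10 (GRCm38), and sequences are from GENCODE M21 transcripts, 5′ to 3′. The genes are packed so closely that some share bases. The reading frames of mt-Atp8 and mt-Atp6, which encode both complex V subunits of this chromosome, overlap by 43 bases on the same strand at chrM:7927-7969. The overlap is in capitals, from the start codon of mt-Atp6 to the stop codon of mt-Atp8.
mt-Atp8 and mt-Atp6 (chrM:7915-7981, plus strand): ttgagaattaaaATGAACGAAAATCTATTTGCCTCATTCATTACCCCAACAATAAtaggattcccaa

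mt-Nd4l and mt-Nd4 share 7 bases, mt-Atp6 and mt-Co3 share 1, and mt-Nd5 and mt-Nd6 share 14 on opposite strands. In addition, mt-Co3, mt-Nd4 and mt-Cytb are annotated without a whole stop codon. Each ends in a single T, which is completed to a stop codon by the poly(A) tail of the mRNA. The last 30 bases of these genes are given with those of mt-Co2, whose stop codon is encoded in full, and the encoded part of the stop codon is in capitals.
mt-Co3 (chrM:9361-9390, plus strand): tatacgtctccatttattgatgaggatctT
mt-Nd4 (chrM:11515-11544, plus strand): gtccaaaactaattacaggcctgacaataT
mt-Cytb (chrM:15259-15288, plus strand): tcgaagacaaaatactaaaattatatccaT
mt-Co2 (chrM:7667-7696, plus strand): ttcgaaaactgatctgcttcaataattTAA

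The nuclear genome also holds copies of mitochondrial genes. A stretch of chromosome 1 (chr1:24611535-24616197, minus strand) carries 7 annotated pseudogenes that follow the order of the mitochondrial chromosome from base 6390 to base 11042, and 5 of them are identical to their mitochondrial gene over the aligned bases. The other 2 differ at 1 base each, in capitals below. Positions are counted from 1 at the first base of the mitochondrial gene, and the changes are A1066T between mt-Co1 and Gm29216 and T3C between mt-Nd3 and Gm28438.
mt-Co1 (chrM:6390-6423, plus strand): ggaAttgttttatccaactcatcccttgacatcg
Gm29216 (chr1:24616155-24616188, minus strand): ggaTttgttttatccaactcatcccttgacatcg
mt-Nd3 (chrM:9459-9491, plus strand): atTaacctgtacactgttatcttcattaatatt
Gm28438 (chr1:24613087-24613119, minus strand): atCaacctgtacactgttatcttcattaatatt

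A read from an identical stretch matches both places equally well. No source used here says how such reads were assigned, so the counts of the 7 mitochondrial genes with a chromosome 1 copy (mt-Co1, mt-Co2, mt-Atp6, mt-Co3, mt-Nd3, mt-Nd4l and mt-Nd4) are uncertain to that extent. mt-Nd1, mt-Nd2, mt-Nd5, mt-Nd6, mt-Cytb and mt-Atp8 have no listed copy there. Of these, mt-Atp8 (bases 7766 to 7969) nevertheless lies within the span of that stretch (bases 6390 to 11042). Its last 43 bases are also the first of mt-Atp6, whose copy is identical over the aligned bases. The count of mt-Atp8 may therefore be uncertain in the same way.

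Per length, mitochondrial mRNAs were the most abundant transcripts of these tumours: 9 of the 13 held ranks 1 to 9 among all listed genes by mean FPKM over the 8 libraries. mt-Co1, the catalytic subunit of complex IV, was highest at 35862.8 ± 656 FPKM in ND and 30410.5 ± 1783 FPKM in HCD (SD, n = 4 each). Its lowest library, at 28563.5 FPKM, lay above the highest library of any other member. mt-Co2, which holds the copper site that accepts electrons from cytochrome c, followed at a mean of 16814.9 FPKM and exceeded mt-Nd1, a membrane subunit of complex I (15004.2 FPKM), in 8 of 8 libraries, although their ranges over the libraries overlapped. Next came mt-Atp8 (10841.1 FPKM), mt-Cytb (9743.19), mt-Co3 (9496.04), mt-Nd4 (9172.65), mt-Nd4l (9155.36) and mt-Nd2 (8304.42). The order within this group of 6 was not the same in all libraries, and each neighbouring pair overlapped. mt-Nd5 (4388.66 FPKM) was below mt-Nd2 in 8 of 8 libraries without overlap.

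The lowest levels were those of mt-Atp6 (1111.06 FPKM, rank 31 among all genes), mt-Nd3 (303.155 FPKM, rank 97) and mt-Nd6 (138.245 FPKM, rank 256). mt-Nd6, a complex I subunit, is the only protein-coding gene transcribed from the other strand. Its mRNA is rich in G (28.1%) and poor in C (5.97%), whereas the 12 others hold 22.1% to 29.97% C. mt-Nd6 was below mt-Nd3 in 8 of 8 libraries. No source used here says whether strand was used in counting, so reads from mt-Nd6 and from antisense RNA of its region cannot be told apart.

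**Figure D1:**
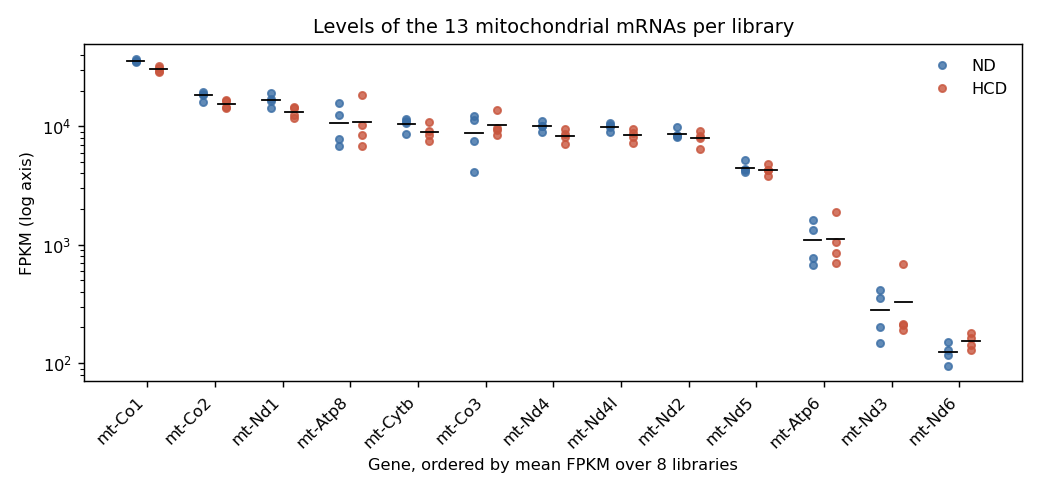
FPKM (log axis) of the 13 mitochondrial mRNAs, ordered by mean FPKM over 8 libraries, with 1 point per library, ND in blue and HCD in red, and a line at each group mean. mt-Co1 lies above all others in every library, and mt-Atp8, mt-Atp6, mt-Co3 and mt-Nd3 have the widest vertical scatter in both diets.

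Mitochondrial mRNAs took a smaller share of all counts in the HCD tumours. The share was 13.83%, 14.69%, 13.66% and 13.73% in ND 1 to ND 4 and 11.72%, 11.42%, 12.66% and 12.91% in HCD 1 to HCD 4. Every HCD library was below every ND library. The means were 13.98% ± 0.481 and 12.18% ± 0.719 (SD, n = 4 each), a difference of -1.803 percentage points. The 95% Wilson interval of a single share was at most 0.0353 points wide, which covers counting error only. No test is given for this sum. In bulk tumour RNA, fewer mitochondria-rich cells and less mitochondrial RNA per cell cannot be told apart.

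The make-up of the mitochondrial mRNA pool by complex was close in the diets. As a share of mitochondrial mRNA counts, the 7 complex I genes made up 35.8% ± 2.29 in ND and 35.2% ± 1.93 in HCD. Complex III, mt-Cytb alone, made up 8.59% ± 1.00 and 8.42% ± 1.02. The 3 complex IV genes made up 53.5% ± 1.43 and 53.9% ± 2.48, and the 2 complex V genes 2.09% ± 0.765 and 2.45% ± 1.04 (SD, n = 4 each). These differences in make-up were smaller than the spread between libraries.

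**Figure D2:**
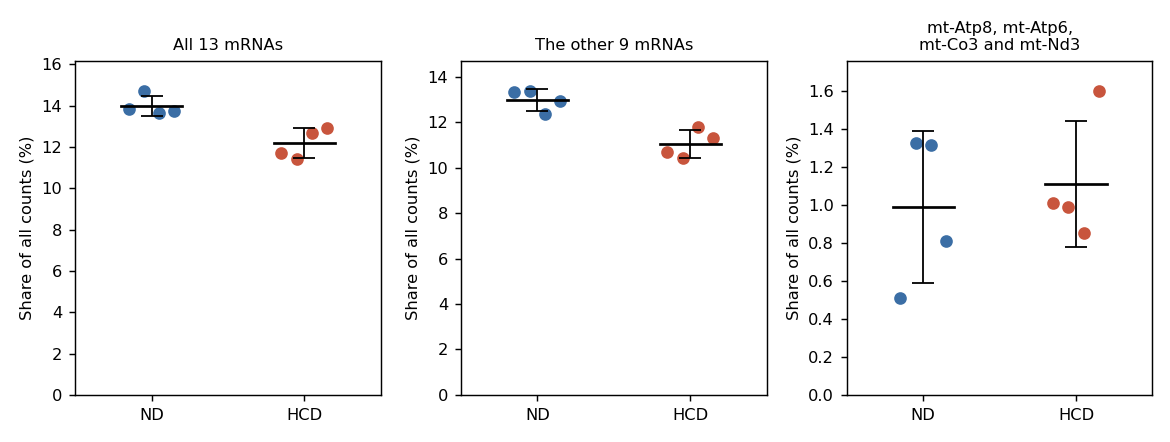
Share of all counts (%) taken by the 13 mitochondrial mRNAs, by mt-Atp8, mt-Atp6, mt-Co3 and mt-Nd3, and by the other 9, with 1 point per library and the mean ± SD of each diet (n = 4). The ND and HCD points do not overlap for all 13 and for the other 9, and overlap for the 4 variable mRNAs.

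Skeletal muscle is rich in mitochondria, and its markers were highest in ND 1 and ND 2. The 9 skeletal muscle markers summed to 21.0395, 33.1095, 6.99985 and 2.12003 FPKM in ND 1 to ND 4 and to 1.59 to 3.32 FPKM in HCD, where 1 to 5 of the 9 were at 0, against 0 at 0 in each ND library. Of the 9 muscle markers, 5 passed the filter on low counts, and the others have no test. All 5 had an unadjusted p under 0.05 and were lower in HCD. Of them 0 passed the adjusted threshold, and the diets overlapped for each. Acta1, Ckm and Myh4 had means of 6.19, 1.90 and 0.446 FPKM in ND and 0.390, 0.339 and 0.0295 FPKM in HCD. Markers this low in HCD may have passed the filter through their ND counts. The 5 are therefore not compared with the share of all genes. ND 4, whose muscle sum lay within the HCD range, had a share of 13.73%, above the highest HCD share of 12.91%. Without ND 1 and ND 2, an alternative chosen after the muscle values were seen, the difference in share was -1.52 points. For ND 1 alone, the ND library without the receptor-gene counts, the difference from the HCD mean was -1.66 points. The 7 macrophage markers summed to 297.587, 164.286, 179.185 and 214.492 FPKM in ND 1 to ND 4 and 265.931 to 353.951 FPKM in HCD, with 0 members at 0. For this sum ND 1 lay within the HCD range and ND 2 to ND 4 below it, the same split of libraries as for the receptor genes. The 5 endothelial markers summed to 8.90 to 11.5 FPKM in ND and 12.1 to 13.8 FPKM in HCD, without overlap and with 0 members at 0, and the 3 keratinocyte markers to at most 0.0642 FPKM in any library. At an unadjusted p under 0.05, 3 of the 7 macrophage markers and 3 of the 5 endothelial markers were higher in HCD. The background was 7.21% of all genes tested (given with the single genes below). The median log2 fold change was 0.70 over the fibroblast markers tested, 0.76 over those of red cells, 0.24 over those of T cells, and 0.71 for the 1 adipocyte marker tested. Among these lists 0 markers were called by edgeR, and the part of these cells in the share was not tested.

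Taken one by one, 10 of the 13 mRNAs had a negative log2 fold change (HCD over ND) and 3 a positive one. With edgeR's quasi-likelihood test 0 of the 13 passed an adjusted p of 0.05, against 0.182% of all genes tested (24 of 13186). At an unadjusted p under 0.05, 5 of the 13 were lower in HCD and 0 were higher, where the background was 7.49% of genes lower and 7.21% higher. The median log2 fold change was -0.17 over the 13 and 0.0049 over all genes. Genes of 1 chromosome share transcripts and vary together, so they are not independent of each other. limma-voom called 0 of the 13. DESeq2, which called 428 genes in all, called mt-Co1 (adjusted p = 0.00316) and mt-Nd1 (adjusted p = 0.0316).

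Among the complex IV genes, mt-Co1 was at 57277.7, 56303.2, 56671.6 and 55027.3 CPM (counts scaled to a common library total with TMM factors) in ND 1 to ND 4 and at 42702.2, 47309.8, 49672.9 and 45610.9 CPM in HCD 1 to HCD 4. The ND values lay close together, and all 4 HCD values were below them. The log2 fold change of mt-Co1 was -0.28 (SE 0.0638, edgeR adjusted p = 0.101). For mt-Co2 the ND libraries had 13427.1, 13030.7, 11280.3 and 12836.0 CPM, and the HCD libraries 9567.56, 9649.52, 11195.5 and 11258.9 CPM. The groups again did not overlap, but ND 3 and HCD 4 were only just apart, and the log2 fold change was -0.28 (SE 0.0821, edgeR adjusted p = 0.164). These 2 were the only members with every HCD library below every ND library in CPM, which held for 4.73% of all genes tested. For mt-Co2 this depended on the TMM factors. In FPKM, ND 3 (16099.1) was below HCD 3 (16548.8) and HCD 4 (16372.2), and the groups also overlapped as a share of all counts. mt-Co3, a structural subunit of the complex, differed from both: its group means were 7006.63 ± 2999 and 7913.58 ± 1935 CPM, with a log2 fold change of 0.18 and an edgeR adjusted p of 0.84.

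Among the complex I genes, mt-Nd1 had the most negative log2 fold change of the 13. It was at 18584.3, 16059.4, 13989.9 and 16544.5 CPM in ND 1 to ND 4 and at 10786.1, 11663.9, 13569.0 and 14035.7 CPM in HCD 1 to HCD 4. ND 3 lay just below HCD 4, so the groups overlapped by that pair. The log2 fold change of mt-Nd1 was -0.38 (SE 0.107, edgeR adjusted p = 0.153). mt-Nd4, a proton-pumping membrane subunit, had 15350.8, 14144.1, 12552.0 and 14060.4 CPM in ND and 11478.1, 9597.17, 12955.8 and 11217.6 CPM in HCD. Here HCD 3 reached above ND 3. The log2 fold change was -0.31 (SE 0.0959, edgeR adjusted p = 0.182).

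mt-Nd4l, which lies on the same mRNA as mt-Nd4, was at 2710.74 to 3216.72 CPM in ND and 2123.89 to 2790.08 CPM in HCD, with a log2 fold change of -0.28 (SE 0.0883, edgeR adjusted p = 0.185). mt-Nd2 (-0.17, edgeR adjusted p = 0.53) and mt-Nd5 (-0.11, edgeR adjusted p = 0.65), 2 further membrane subunits, were closer to 0. mt-Nd2 ranged from 8564.96 to 10376.8 CPM in ND and from 6586.55 to 9326.63 CPM in HCD, and mt-Nd5 from 7638.68 to 9647.58 and from 6808.09 to 8512.08 CPM, so the groups overlapped for both. The light-strand gene mt-Nd6 went the other way. Its ND libraries were at 67.5, 80.5, 50.2 and 61.3 CPM, and its HCD libraries at 82.1, 72.3, 91.6 and 67.8 CPM. HCD 3 and HCD 1 were highest and ND 3 lowest, with overlap between, and the log2 fold change was 0.27 (SE 0.144, edgeR adjusted p = 0.414).

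mt-Cytb, the only complex III subunit on this chromosome, was at 9917.05, 13558.7, 12519.6 and 12903.0 CPM in ND 1 to ND 4 and at 10065.5, 8497.61, 9472.12 and 12511.1 CPM in HCD 1 to HCD 4. ND 1 was among the low libraries and HCD 4 among the high ones, which set it apart from mt-Co1. Its log2 fold change was -0.27 (SE 0.128, edgeR adjusted p = 0.370). In complex V, mt-Atp8 (-0.0086, SE 0.335) and mt-Atp6 (-0.0021, SE 0.346) had values near 0 with standard errors several times those of mt-Co1.

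**Figure D3:**
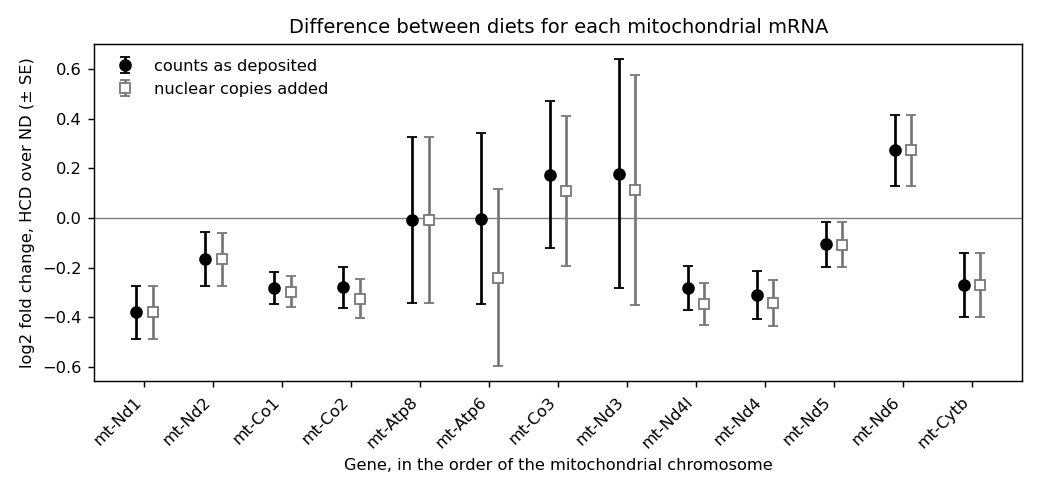
log2 fold change (HCD over ND, ± SE from edgeR) of each mitochondrial mRNA in chromosome order, from the counts as deposited (filled circles) and with the counts of the listed nuclear copies added (open squares). mt-Co1, mt-Co2, mt-Nd1, mt-Nd4 and mt-Nd4l lie between -0.28 and -0.38 with narrow bars, and mt-Atp8, mt-Atp6, mt-Co3 and mt-Nd3 have bars that span 0.

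The variation that was widest among these mRNAs did not follow the diet. mt-Atp8, mt-Atp6, mt-Co3 and mt-Nd3, which stand next to each other on the chromosome, varied several fold between tumours of the same group, and they were singled out after their values were seen. mt-Nd3, a complex I subunit, was at 51.9, 125.9, 148.2 and 71.8 CPM in ND 1 to ND 4 and at 71.9, 71.7, 65.0 and 241.7 CPM in HCD 1 to HCD 4. HCD 4 was far above the other HCD libraries, and its log2 fold change was 0.18 with an edgeR adjusted p of 0.90. For mt-Co3 the ND libraries were at 3248.65, 9000.53, 9802.91 and 5974.44 CPM, and the HCD libraries at 6986.51, 7377.87, 6522.25 and 10767.7 CPM. ND 1 was lowest and HCD 4 highest, so both groups spanned most of the range.

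For mt-Atp8 the ND libraries were at 1401.86, 3261.21, 2623.69 and 1617.82 CPM, and the HCD libraries at 2014.13, 1682.24, 1385.81 and 3769.25 CPM. For mt-Atp6 they were at 462.4, 1117.4, 924.3 and 535.8 CPM and at 688.3, 570.5, 475.9 and 1300.6 CPM. HCD 4, ND 2 and ND 3 were the 3 highest libraries for all 4 genes, and ND 1 was the lowest or next to lowest. The highest library exceeded the lowest by 4.65 times for mt-Nd3, 3.31 for mt-Co3, 2.81 for mt-Atp6 and 2.72 for mt-Atp8, against 1.34 for mt-Co1. ND 1, the lowest library for mt-Atp6, mt-Co3 and mt-Nd3, was the highest for mt-Co1.

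The within-group coefficient of variation (SD over mean, pooled over both diets) was 62.9% for mt-Nd3, 45.2% for mt-Atp6, 44.0% for mt-Atp8 and 34.9% for mt-Co3. Over the 4022 nuclear genes with at least 50 CPM, the median was 8.15%. Of these nuclear genes, 0.298% had a larger value than mt-Nd3, 0.92% than mt-Atp6, 1.07% than mt-Atp8 and 1.79% than mt-Co3. By contrast, mt-Co1 varied by 4.63%, and 89.1% of the nuclear genes varied more. The immediate neighbours on either side, mt-Co2 (8.25%) and mt-Nd4l (9.38%), were near the nuclear median.

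As a share of all counts the 4 variable genes summed to 0.512%, 1.32%, 1.32% and 0.809% in ND 1 to ND 4 and 1.01%, 0.989%, 0.854% and 1.60% in HCD 1 to HCD 4, with means of 0.991% ± 0.400 and 1.11% ± 0.332 (SD, n = 4 each). The groups overlapped. The other 9 summed to 12.99% ± 0.474 in ND and 11.06% ± 0.615 in HCD, a difference of -1.93 points, and did not overlap. What set the 4 genes apart was not tested.

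**Figure D4:**
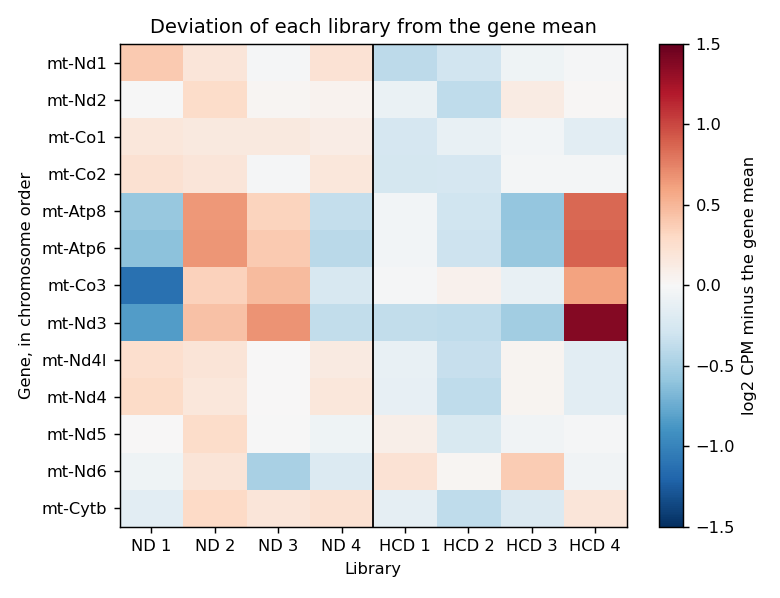
log2 CPM of each mitochondrial mRNA in each library minus the gene's mean over the 8 libraries, with genes in chromosome order and the 4 ND libraries left of the line. mt-Atp8, mt-Atp6, mt-Co3 and mt-Nd3 form a block that is low in ND 1 and high in ND 2, ND 3 and HCD 4, while mt-Co1 is above its mean in all ND libraries and below it in all HCD libraries.

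Genes that share an mRNA give a check on the counts within each library. mt-Nd4l and mt-Nd4 are translated from a single mRNA, and the FPKM of mt-Nd4l over that of mt-Nd4 was 0.972 to 1.03 across the 8 libraries (mean 1.00). mt-Atp8 and mt-Atp6 are also translated from a single mRNA, but the FPKM of mt-Atp8 over that of mt-Atp6 was 9.48 to 10.1 (mean 9.80). With the counts of the chromosome 1 copy of mt-Atp6 added to mt-Atp6, the ratio was 3.43 to 4.45. Why these ratios differ from 1 was not tested. From the counts as deposited, the ratios of both pairs varied little between libraries, while the levels of mt-Atp8 and mt-Atp6 varied by 2.72 and 2.81 times.

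The files list 11 nuclear copies of mitochondrial genes, taken as genes whose transcripts align to a mitochondrial one over at least 100 bases at 95% identity or more. The 7 on chromosome 1 held 1.06% ± 0.157 of all counts in ND and 0.782% ± 0.0938 in HCD (SD, n = 4 each). Relative to its mitochondrial gene, Gm10925, the copy of mt-Atp6, had 1.41, 1.69, 1.77 and 1.803 times as many counts in ND 1 to ND 4 and 1.33, 1.21, 1.32 and 1.27 times as many in HCD 1 to HCD 4. The count ratio of each of the other 6 was at most 0.285 in any library. In 4 of the 7, every HCD ratio was below every ND ratio, and in 7 of 7 ND 1 was the lowest of the ND libraries.

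Of the 24 genes called over the whole table, 4 were copies on chromosome 1, and all 4 were lower in HCD. Gm28439, the copy of mt-Nd4, went from 1873.4 ± 122 to 1216.21 ± 161 CPM (SD, n = 4 each), a log2 fold change of -0.62 (SE 0.0971, edgeR adjusted p = 0.0459). Gm10222, the copy of mt-Nd4l, had -0.62 (SE 0.0918, edgeR adjusted p = 0.0459), Gm28661, the copy of mt-Co2, -0.56 (SE 0.0888, edgeR adjusted p = 0.0462), and Gm29216, the copy of mt-Co1, -0.53 (SE 0.0815, edgeR adjusted p = 0.0459). Each of these 4 lost its call when any 1 of the 8 libraries was left out, with edgeR adjusted p from 0.0589 (without ND 1) to 0.138 (without HCD 4). With a replicate block their edgeR adjusted p was 0.106 to 0.196, and without ND 1 and ND 2 it was 0.0652 to 0.125. With a term for ND 2 to ND 4, their log2 fold changes were -0.37 to -0.51 with edgeR adjusted p from 0.352 to 0.373.

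The copies of mt-Nd3 and mt-Co3 were highest among the HCD libraries in HCD 4, as were their mitochondrial genes. Gm28438, the copy of mt-Nd3, was at 47.1 CPM in HCD 4 against 12.7 to 15.4 CPM in the other HCD libraries, and Gm28437, the copy of mt-Co3, at 2069.37 CPM against 1359.58 to 1370.81 CPM. Gm13340 on chromosome 2 is 97.6% identical to mt-Co1 over 1545 bases, and its count was 0.00885 times that of mt-Co1 in ND 1, 0.0145, 0.0154 and 0.0159 times in ND 2 to ND 4, and 0.00837 to 0.0097 times in HCD. ND 1 therefore lay within the HCD range, as it did in the number of receptor genes with a count. The same held for the ratios of Gm28438, Gm28437 and Gm29216 on chromosome 1. Gm13340 had a log2 fold change of -0.89 (SE 0.16, edgeR adjusted p = 0.061), -1.04 without ND 1 (edgeR adjusted p = 0.00273), -1.07 without ND 1 and ND 2 (edgeR adjusted p = 0.00389), and -0.29 with a term for ND 2 to ND 4 (edgeR adjusted p = 0.458). Of the less abundant copies, Gm4076, like mt-Nd5, had -0.82 (edgeR adjusted p = 0.158) and Gm13339, like mt-Nd2, -0.78 (edgeR adjusted p = 0.157). With the term for ND 2 to ND 4 these were -0.32 and -0.53.

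**Figure D5:**
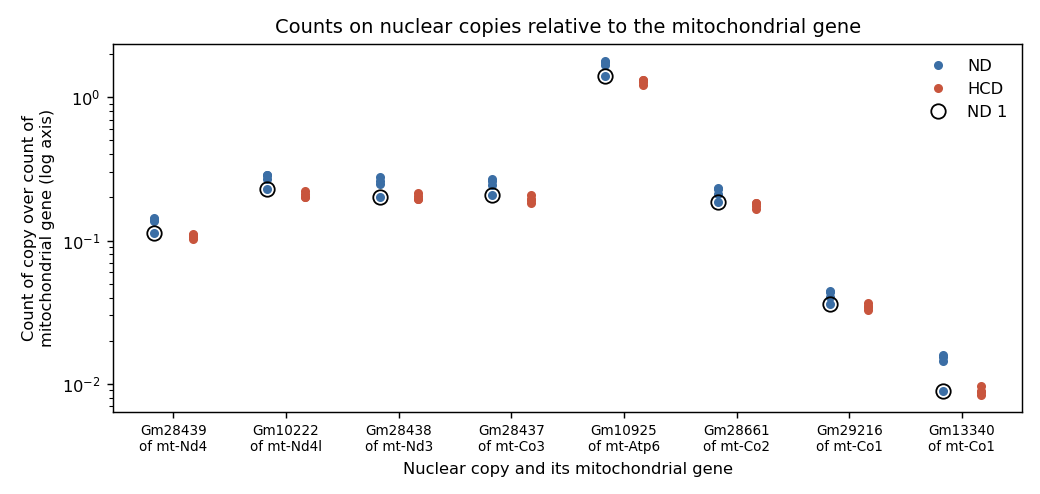
Count of 8 nuclear copies divided by the count of the mitochondrial gene each resembles (log axis), with 1 point per library, ND in blue, HCD in red and ND 1 ringed. The ringed ND 1 is the lowest ND point for every copy shown, and for Gm13340 it lies among the HCD points.

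Adding the counts of the copies to their mitochondrial genes moved the values of mt-Co1, mt-Co2, mt-Nd4 and mt-Nd4l little. The log2 fold changes became -0.30 for mt-Co1 (SE 0.0622, edgeR adjusted p = 0.087), -0.33 for mt-Co2 (SE 0.0794, edgeR adjusted p = 0.122), -0.34 for mt-Nd4 and -0.35 for mt-Nd4l. For mt-Atp6, the gene with the largest share of its family on the copy, the value went from -0.0021 to -0.24, with an SE of 0.357. No member passed the adjusted threshold with the copies added, and 10 of 13 were lower. The median over the 13 was then -0.24.

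The nuclear genes that maintain, transcribe, process and translate mitochondrial RNA were described by 6 lists, and in 4 of them more members were higher in HCD than lower. With edgeR, 0 genes of the 6 lists passed the adjusted threshold, against the background of 0.182%. DESeq2, which called 428 of 12950 genes over the whole table, called Ppargc1a and Gabpb1 among the genes named below. Its calls among the other genes of the lists are not given here. Of the 12 genes of mitochondrial DNA maintenance, 3 were lower and 9 higher (median log2 fold change 0.051). At an unadjusted p under 0.05 (7.49% of all genes lower and 7.21% higher), Exog, a mitochondrial nuclease (0.50, edgeR adjusted p = 0.19), and Twnk, the replicative helicase (0.24, edgeR adjusted p = 0.30), were higher, and Tk2, the mitochondrial thymidine kinase (-0.28, edgeR adjusted p = 0.25), was lower. Of the 11 genes of mitochondrial transcription, 3 were lower and 8 higher (median 0.13), and 0 had an unadjusted p under 0.05. Polrmt, the mitochondrial RNA polymerase, had 16.7 ± 3.06 CPM under ND and 20.2 ± 2.24 CPM under HCD (0.28, edgeR adjusted p = 0.40). Tfam, which packages the mitochondrial chromosome and starts its transcription, had 31.6 ± 5.46 and 37.5 ± 7.74 CPM (SD, n = 4 each, edgeR adjusted p = 0.54). Mterf3, of the MTERF family, had -0.20.

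Of the 19 genes of mitochondrial RNA processing and modification, 6 were lower and 13 higher (median 0.066), and only Trmu, which thiolates mitochondrial transfer RNAs, had an unadjusted p under 0.05 (-0.37, edgeR adjusted p = 0.30). Mto1 (0.23) and Trmt5 (0.25), which also modify transfer RNAs, did not. The 14 genes of RNA stability and decay were 7 lower and 7 higher (median 0.043). Supv3l1, the helicase of the mitochondrial RNA degradation complex, had 27.3 ± 2.19 CPM under ND and 33.0 ± 1.75 CPM under HCD (0.27, edgeR adjusted p = 0.20). Pde12, which shortens poly(A) tails in mitochondria, had 0.29 (edgeR adjusted p = 0.24), and Lrpprc, which binds and stabilises mitochondrial mRNAs, 0.11 (edgeR adjusted p = 0.47).

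Of the 10 mitochondrial translation factors, 2 were lower and 8 higher (median 0.14). At an unadjusted p under 0.05, 4 were higher and 0 lower, beside the background of 7.21% higher. They were Taco1, an activator of the translation of mt-Co1 (0.41, edgeR adjusted p = 0.17), the release factor Mtrf1l (0.52, edgeR adjusted p = 0.26), the elongation factor Tufm (0.37, edgeR adjusted p = 0.26) and the elongation factor Gfm1 (0.17, edgeR adjusted p = 0.30), the last named after its value was seen. The summed FPKM of the 10 was 46.4 to 49.8 in ND and 53.6 to 60.7 in HCD, without overlap. The regulators of mitochondrial biogenesis, described next, had 48.9 to 52.9 FPKM in ND and 53.3 to 58.7 FPKM in HCD. That separation depends on the scaling, because FPKM does not use the TMM factors. ND 2 (52.9 FPKM, TMM factor 0.982) and HCD 3 (53.3 FPKM, TMM factor 1.01) change order when these are applied. Within that sum, Ppargc1a alone went from a mean of 7.37 FPKM in ND to 10.0 FPKM in HCD. The sums of the remaining mitochondrial lists overlapped between the diets.

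Of 8 regulators of mitochondrial biogenesis, 4 were lower and 4 higher (median 0.016), of which 1 and 2 had an unadjusted p under 0.05, beside 7.49% of all genes lower and 7.21% higher. Ppargc1a, a coactivator of mitochondrial gene programmes, had 63.1 ± 10.98 CPM under ND and 83.1 ± 2.48 CPM under HCD (SD, n = 4 each). Its log2 fold change was 0.40 (SE 0.11, edgeR adjusted p = 0.147) (DESeq2 adjusted p = 0.0402). Its relative Ppargc1b had 0.49 (edgeR adjusted p = 0.29). Gabpb1, a subunit of a transcription factor that acts on nuclear genes for mitochondrial proteins, had -0.38 (SE 0.107, edgeR adjusted p = 0.148) (DESeq2 adjusted p = 0.0481). Of 5 long RNAs that stay in the nucleus, 2 were lower and 3 higher, and Malat1 had 318.1 ± 108 CPM under ND and 235.58 ± 70.9 CPM under HCD (edgeR adjusted p = 0.50). Kcnq1ot1 had -0.42 (edgeR adjusted p = 0.66) and Meg3 0.45 (edgeR adjusted p = 0.73).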

How the data were processed

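The 8 libraries were made from total RNA with the TruSeq RNA kit as paired-end libraries, per the labels' protocols. TopHat2 2.0.9, HTSeq, edgeR, CASAVA 1.8 and the build mm10 are listed, with no role or order, in the submitters' processing notes. Per the file headers, each deposited table holds counts and FPKM per Ensembl gene. The counts are whole numbers with no normalization. The deposited FPKM are counts scaled to the total of listed counts and to gene length, with lengths equal to the annotated ones, as the values show. No source used here says how the authors treated strand or reads that match several places.

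Counts were tested with edgeR 4.0.16 (quasi-likelihood F-test, TMM factors, expression filter with minimum count 10 and minimum total 15, diet as the only term, all 8 libraries, R 4.3.3) on 13186 genes holding at least 99.88% of counts, with Benjamini-Hochberg adjustment over all of them. Of the listed genes, 34267 matched GENCODE M21, and blastn 2.17.0 found the nuclear copies. Levels between genes were compared by FPKM. Alternatives were DESeq2 1.42.0, limma-voom (limma 3.58.1), other scalings, no filter, leaving out libraries, a replicate block, a term for ND 2 to ND 4 and adding the copies. On counts simulated for the 13186 genes, the fit's signs and sizes were checked. The planned ribosomal RNA share and ratio were not computed, because no mitochondrial ribosomal RNA gene was among the listed genes.

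The members and lists were chosen with earlier results of these data known. The text names every member, every tested copy, the 3 genes of each pathway list with the smallest p, and examples from marker lists. Pairing by replicate number was not used: deviations of same-numbered libraries correlated at 0.025, -0.011, -0.068 and 0.107.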

Additional observations from a re-analysis of the deposited data

Results flagged for a closer look

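Within a diet, 6 of 60 groups of 4 values had a library far from the other 3 (Dixon's 95% limit). Chance gives about 1 in 20 for independent groups. These groups are not independent, as they hold sums of the same genes and nuclear copies beside the genes they resemble. For mt-Nd3, HCD 4 was at 241.73 CPM against 65.0 to 71.9 CPM in the other HCD libraries. The nuclear copies Gm28438 (47.0866 CPM against 12.7 to 15.4 CPM) and Gm28437 (2069.37 CPM against 1359.58 to 1370.81 CPM) stood out in HCD 4 as well. In ND 1, Gm13340 was at 507.163 CPM against 818 to 873 CPM in ND 2 to ND 4. In ND 2, mt-Nd2 was at 10376.8 CPM against 8564.96 to 8865.58 CPM, and the share of counts from all 13 mRNAs was 14.6936% against 13.66% to 13.83%.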

How the results depend on the processing

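The difference in share was -2.05 to -1.55 points when 1 library was left out. Every HCD share was below every ND share, so leaving out libraries or pairing them could not change its direction. The replicate block gave -1.803 (pairs -3.28 to -0.822), which equals the main value by construction. The difference was -2.11 points with nuclear copies added. As a share of summed FPKM, where short abundant genes weigh more, it was -2.62 (35.1% in ND, 32.5% in HCD). The number of members called was 0 in every alternative except DESeq2, which called 2. Over all genes tested, 24 were called, against 428 with DESeq2, 93 without a filter, 19 with limma-voom, 6 with a term for ND 2 to ND 4, 3 with copies added, 11 without ND 1 and ND 2, 0 to 12 without 1 library and 1 with the replicate block, which called 0 members.

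Log2 fold changes of 5 members and 3 copies turned direction. When 1 library was left out they ran from -0.39 to 0.23 for mt-Atp8, -0.39 to 0.24 for mt-Atp6, -0.062 to 0.38 for mt-Co3, -0.52 to 0.44 for mt-Nd3, -0.84 to 0.16 for Gm28438 and -0.46 to 0.044 for Gm28437. With a term for ND 2 to ND 4, which rests on ND 1 as the only other ND library, they were 0.66 for mt-Atp8, 0.72 for mt-Atp6, 0.035 for mt-Cytb, 1.11 for Gm28438, 1.19 for Gm28437 and 0.58 for Gm10925, and mt-Co3 and mt-Nd3 moved from 0.18 each to 1.29 and 1.12. Without ND 1 and ND 2 they were 0.062 for mt-Atp8 and 0.056 for mt-Atp6, and mt-Atp6 had 0.0016 without a filter. The other 8 members kept their direction in every alternative. The causes of these changes were not tested. The smallest count of a member in any library was 813.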
